A study of Mus musculus with 34 samples.

Results

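In mouse embryonic stem (ES) cells, 522 regions of the genome away from chromosome 13 carried high H3K27ac in lines with the B6 version of a chromosome 13 segment. The same regions carried low H3K27ac in lines with the D2 version of it. They were found among 229016 regions off chromosomes 13, X and Y, in a list of 248336 regions in all. A region was taken when its mean H3K27ac was at least 2 CPM (its count over the library's total count, times 1000000) in the lines B6 and D2-13B6, and each of these means was at least 2 times the mean plus 0.2 CPM of B6-13D2 and of D2. The regions were selected on the H3K27ac values of every library of the 4 lines, so those values are a description and were not tested. The opposite pattern, high in B6-13D2 and D2 and low in B6 and D2-13B6 by the same thresholds, was met by 15 regions.

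H3K27ac, acetylation of lysine 27 of histone H3, marks active promoters and enhancers. H3K9me3, trimethylation of lysine 9, marks heterochromatin and in ES cells is laid down at retrotransposons by the SETDB1 and TRIM28 complex, which KRAB zinc finger proteins direct to particular sequences. Many KRAB zinc finger genes lie in clusters that differ between mouse strains, and the proteins act in trans, on sites on any chromosome. Retrotransposons hold promoters of their own, which can carry H3K27ac where they are not silenced. The promoters of mouse LINE-1 elements are arrays of short tandem units called monomers.

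The 4 lines were C57BL/6J (B6, line B6 5-1), DBA/2J (D2, line D2 5-5) and the reciprocal congenic lines QJ 6-1 and XE 2-4. QJ 6-1, here B6-13D2, is B6.D2-(rs30079041-rs51756099)/Bakr, with the D2 segment of chromosome 13 on a B6 background. XE 2-4, here D2-13B6, has a D2 background with the B6 version of the segment and is labelled D2.B6-(rs29224292-rs13469455)/Bakr, although the series' design text ends its segment at rs51756099. All cells were grown with serum, LIF, PD0325901 and CHIR99021. Each genotype of this series was 1 line with repeated libraries, so differences are between these lines, and p-values measure only the spread between their technical libraries. For H3K27ac there were 3 libraries a line, and for H3K9me3 3 of B6, 3 of D2-13B6, 2 of B6-13D2 and 2 of D2. In a further series, 3 separate B6 lines and 3 separate D2 lines were profiled for each mark, with another H3K27ac antibody, and line B6 5-1 and line D2 5-5 were among them. There the whole genome differed, so effects of the segment and of the rest of the genome cannot be told apart.

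Counts in regions ran from 8735674 to 11543469 a library for H3K27ac and from 1538145 to 2185977 for H3K9me3 in the 4 lines. In H3K27ac, both libraries of 4 pairs, 1 pair in each line, were within sampling noise of each other, and each pair counts as 1 sample, which left n = 2 a line. Replicate 1 of D2-13B6 differed from the other D2-13B6 libraries by a chi-square of up to 2.82 per degree of freedom, against 1.06 at most within the other lines, and without it the same rule found 515 regions. Its H3K9me3 replicate 1 also stood apart, with a chi-square of up to 3.28 per degree of freedom against 1.75 at most within the other lines. In bulk libraries, fewer cells with a mark and less of it per cell cannot be told apart. The D2-13B6 libraries also held more of their counts on chromosome 11. Its share was 9.28% of H3K27ac and 8.18% of H3K9me3, against at most 7.59% and 6.04% in the other lines, and 48 of the 522 regions lay there. All 12 ES cell marker genes had an H3K27ac region at their start, and their summed level was 1430 to 1685 CPM over the libraries. The lists for feeder fibroblasts, primitive endoderm, trophoblast and primed epiblast reached 19.75 to 52.43 CPM, with no marker at 0. The summed level of the 7 feeder fibroblast markers with a region moved with the segment, at 19.75 to 23.85 CPM in B6 against 31.74 to 34.13 in B6-13D2, and at 27.44 to 43.89 in D2-13B6 against 46.93 to 52.43 in D2. That of the 8 primitive endoderm markers moved the other way, at 34.58 to 38.13 against 29.63 to 31.56 CPM and at 47.45 to 51.56 against 44.3 to 46.26. Single genes stood apart in both backgrounds at 2 of the 7 and 1 of the 8, and at 1 of the 12 ES cell and 1 of the 7 trophoblast markers. The trophoblast sum was 30.02 to 39.45 CPM in B6 against 41.43 to 47.48 in B6-13D2. The primed epiblast sum was 25.8 to 29.73 against 33.83 to 35.95 CPM. Both sums overlapped between D2-13B6 and D2. The ES cell sum was 1430 to 1500 CPM in B6 against 1534 to 1578 in B6-13D2, and 1681 to 1685 in D2-13B6 against 1633 to 1672 in D2. The part of these markers' cells in the results at the 522 regions was not tested.

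Many of the 522 regions were copies of a few repeated sequences, which are shown first because the H3K9me3 calls are counted by them. The most widespread run of 24 bases among the regions was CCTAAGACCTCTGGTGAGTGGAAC. Searched on both strands, it was in 134 of the 522 regions (25.7%) and in 0.624% of all regions off chromosomes 13, X and Y. Among regions between 711 and 1301 bp wide the shares were 33.1% and 0.800%. Within a region, neighbouring copies on the same strand were most often 201 bases apart, in 59 of 113 pairs, as in a tandem array. The 201-base unit, here called sequence A, aligned over at least 100 bases in 159 of the 522 regions (30.5%) and in 1.19% of all regions. The start of the unit is shown for 5 of these regions, 2 with the largest H3K27ac ratio among them, 2 with large H3K9me3 rises and 1 whose H3K9me3 differed between the backgrounds. Capitals mark bases equal to the unit and lower case marks the others.
chr2:105858615-105858644, plus strand: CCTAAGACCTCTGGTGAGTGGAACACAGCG
chr19:39249154-39249183, minus strand: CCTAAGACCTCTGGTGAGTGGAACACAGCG
chr15:51111725-51111754, plus strand: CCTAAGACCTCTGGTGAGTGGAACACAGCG
chr17:40464311-40464340, plus strand: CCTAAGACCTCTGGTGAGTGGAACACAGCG
chr5:127278036-127278065, minus strand: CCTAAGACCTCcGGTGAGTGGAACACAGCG

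Among the regions without sequence A, the most widely shared stretch, here sequence B, was in 75 of the 522 (14.4%) and in 0.56% of all regions. A further stretch, sequence C, was in 31 (5.94%) and in 1.41% of all regions, and the remaining 257 regions (49.2%) held none of the 3. A 300-base window of sequence B is shown from 1 region, with its most widespread 24 bases in capitals. It is shown because 57 of these 75 regions could be tested for H3K9me3 and none of them was called higher.
Sequence B, chr1:12126771-12127070, plus strand: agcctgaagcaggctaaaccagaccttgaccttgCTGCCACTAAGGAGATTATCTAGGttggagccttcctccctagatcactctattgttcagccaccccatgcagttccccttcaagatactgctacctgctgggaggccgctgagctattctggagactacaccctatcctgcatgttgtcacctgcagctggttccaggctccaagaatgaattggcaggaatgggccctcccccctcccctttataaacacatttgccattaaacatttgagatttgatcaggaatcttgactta
The 24 bases, on either strand, were in 29 of the 522 regions (5.56%) and in 0.045% of all regions. For sequence C, the most widespread 24 bases were in 21 of the 522 (4.02%) and in 0.269% of all regions. They begin the next stretch, where capitals again mark bases equal to the sequence C source.
Sequence C, chr5:54136316-54136345, plus strand: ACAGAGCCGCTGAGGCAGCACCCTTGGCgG
Neighbouring copies of the sequence C run were most often 214 bases apart, in 6 of 15 pairs. All coordinates are on mm10 (GRCm38). The repeat families of these sequences were not annotated here. How reads that fit several copies were placed is not given in the sources used here, so counts at single copies are uncertain.

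Summed over the 522 regions, H3K27ac came to 5514, 5670 and 5765 CPM in the B6 libraries and to 6063, 6004 and 6102 CPM in D2-13B6. It came to 1384, 1475 and 1394 CPM in B6-13D2 and to 1599, 1620 and 1562 CPM in D2. The groups did not overlap, as the choice of regions requires. At single regions, every library of B6 and D2-13B6 lay above every library of B6-13D2 and D2 in 520 of 522, against 1.69% of all regions, which follows from the choice of regions and is no result about them. Median levels were 6.3 CPM in B6, 6.74 in D2-13B6, 1.41 in B6-13D2 and 1.59 in D2, where the medians of all regions were 1.14, 0.903, 0.928 and 0.943 CPM. The ratio that limited membership, the lower of the high means over the higher of the low means plus 0.2 CPM, had a median of 2.64 and reached 10.84. Just inside the threshold, chr8:104577395-104578548 had line means of 12.43, 11.42, 5.51 and 4.71 CPM in B6, D2-13B6, B6-13D2 and D2, and chr1:93695203-93696764 in Bok had a ratio of 2.0009. Just outside, chr16:94518800-94521192 and chr17:26701645-26701928 had ratios of 1.9962 and 1.9960.

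**Figure D1:**
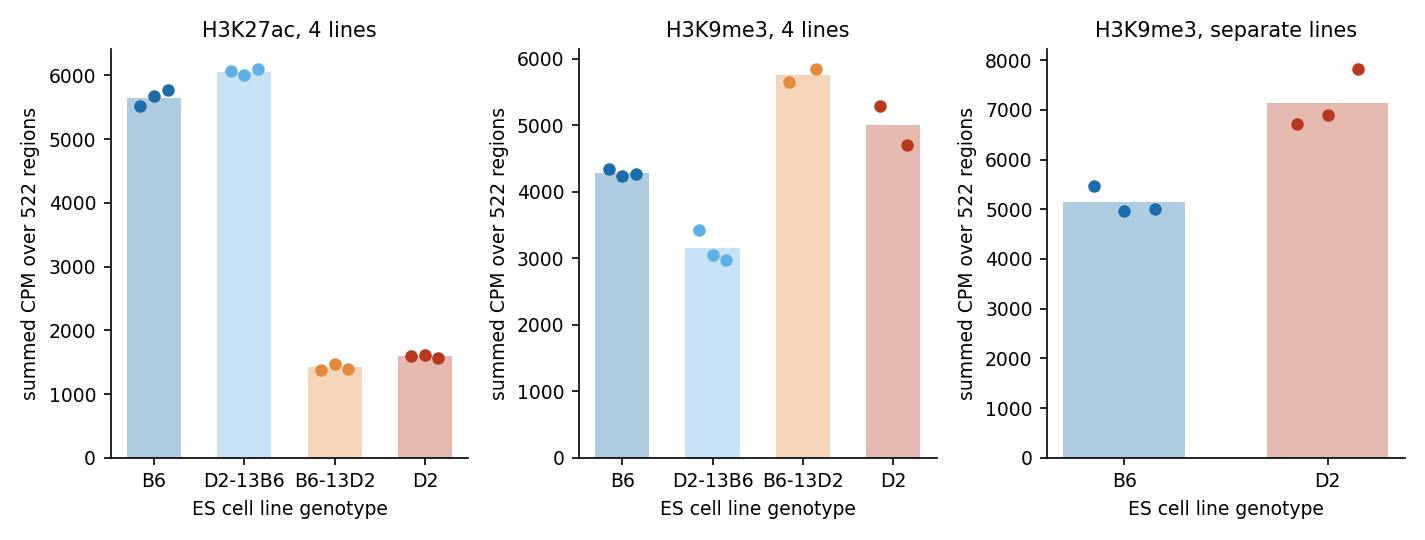
Summed level over the 522 regions in CPM, for H3K27ac and H3K9me3 in the 4 lines and for H3K9me3 in the 3 separate B6 and 3 separate D2 lines; points are libraries and bars are their means. H3K27ac, which chose the regions, was 5514 CPM or more in B6 and D2-13B6 and 1620 CPM or less in the other lines, and H3K9me3 was highest in B6-13D2 and D2.

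The highest H3K27ac, not scaled for width, was at wide regions. At the start of Dmtn, which encodes the actin-binding protein dematin (chr14:70622124-70628028), B6 libraries held 156.2 to 159.6 CPM, D2-13B6 122.9 to 140.9, B6-13D2 57.35 to 64.52 and D2 36.25 to 37.97. At chr4:48679650-48684836, between genes and 16.1 kb from the start of Cavin4, D2-13B6 stood above B6, at 118.4 to 133.1 against 51.99 to 55.55 CPM, with 8.85 to 11.79 CPM in the lines with the D2 segment. At an intron of Sipa1l3 (chr7:29451422-29456066) the lines with the B6 segment held 135.1 to 153.3 CPM and the others 45.22 to 66.67. An intron of Rgs20, a regulator of G protein signalling (chr1:4970020-4973348), held 64.47 to 102.0 against 28.2 to 32.01 CPM. The largest ratio, 10.84, was in an intron of Elp4, an Elongator subunit gene (chr2:105858429-105859515, with sequence A). There B6 held 12.53 to 13.0 CPM, D2-13B6 9.44 to 10.88, B6-13D2 0.547 to 1.0 and D2 0.115 to 0.799.

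The regions had a median width of 972 bp (176 to 5905), against 551 bp for all regions. Of the 522, 296 (56.7%) were intergenic, against 39.4% of all regions, and 126 (24.1%) were in introns of protein-coding genes, against 34.9%. Only 21 (4.02%) were within 1 kb of a protein-coding start, against 11.3%. Bases that the reference marks as repeats made up a median of 56.8% of each region, against 15.6% in all regions, and 54% of the regions were at least 50% repeat, against 16.8%. They lay on all 18 chromosomes considered, from 52 on chromosome 7 to 6 on chromosome 19. Joined at distances of up to 10 kb they formed 438 loci, 376 of them with 1 region and 62 with more.

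H3K9me3 moved the opposite way at a part of these regions. Summed over the 522, it was 4337, 4237 and 4274 CPM in B6 and 5653 and 5850 CPM in B6-13D2. It was 3422, 3051 and 2969 CPM in D2-13B6 and 5295 and 4701 CPM in D2. In both backgrounds the libraries with the D2 segment were therefore above those with the B6 segment, without overlap, while D2-13B6 was also below B6. Region by region, all libraries of B6-13D2 and D2 were above all libraries of B6 and D2-13B6 at 98 of the 522 regions (18.8%), against 0.689% of all regions. They were below at 3 (0.575%), against 0.653%.

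H3K9me3 was tested with edgeR's quasi-likelihood test, fitted over all regions of the list, with a call at a Benjamini-Hochberg adjusted p under 0.05. On the B6 background (B6-13D2 against B6), 77 regions were called higher and 3 lower, out of 399 of the 522 with enough counts to test. The background among 81208 regions tested was 0.852% higher and 0.393% lower. On the D2 background (D2 against D2-13B6), 118 were called higher and 0 lower, with 204 at an unadjusted p under 0.05 in either direction, and the background was 1.36% and 0.398%. In both contrasts 51 were called higher, against 0.262% of all regions tested. Without the filter on low counts, over all 522, the log2 fold change was above 0 in 336 on the B6 background, with a median of 0.25 against -0.04 for all regions. On the D2 background it was above 0 in 352, with a median of 0.45 against -0.07. The remaining regions thus include many with little H3K9me3 in any line or with no difference detectable at this depth.

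The counts of calls changed with the libraries left in and with the tool. B6-13D2 and D2 had 2 H3K9me3 libraries each, so leaving 1 out leaves a lone library that is assumed to vary like the other lines, with fewer samples in the test. Without B6-13D2 replicate 1 or 2 the count on the B6 background was 49 or 38, and that for both contrasts 31 or 25. Without D2 replicate 1 the count on the D2 background was 52 and that for both contrasts 22. Without the D2-13B6 replicate that stood apart the counts were 93, 121 and 61. DESeq2 called 25 and 66 regions, 12 of them in both contrasts.

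The 6 regions with the largest mean rise over both contrasts had the following values. Beside Obox6, a homeobox gene of oocytes and early embryos, chr7:15848989-15851080 held H3K9me3 of 9.94, 9.45 and 8.67 CPM in B6 and 37.84 and 34.94 in B6-13D2. It held 5.85, 9.26 and 9.15 CPM in D2-13B6 and 43.85 and 36.67 in D2. The log2 fold changes were 1.94 ± 0.25 (SE, edgeR adjusted p = 2.75e-10) and 2.22 ± 0.26 (adjusted p = 4.27e-12). H3K27ac at this region was 42.73 to 45.2 CPM in B6, 28.86 to 34.8 in D2-13B6, 0.913 to 1.47 in B6-13D2 and 2.40 to 4.12 in D2, so the lines high in one mark were low in the other, without overlap.

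In an intron of Erc2, which encodes a scaffold protein of the presynaptic active zone, chr14:27688165-27689179 held 3.98, 3.15 and 5.10 CPM of H3K9me3 in B6 and 23.65 and 33.52 in B6-13D2. It held 8.45, 5.85 and 8.69 in D2-13B6 and 33.68 and 25.15 in D2, with log2 fold changes of 2.78 ± 0.31 (edgeR adjusted p = 1.89e-13) and 1.88 ± 0.28 (adjusted p = 1.12e-07). The groups did not overlap. This region was 1 of 4 within 3515 bp, none of which held sequence A, B or C. Another of the 4, chr14:27687307-27687735, chosen after its values were seen, had 0, 1.05 and 0 CPM in B6 and 6.15 and 8.03 in B6-13D2, at least 4.63-fold higher against a floor of 3 counts a library. Its change on the D2 background did not pass the test (0.92 ± 0.58, adjusted p = 0.598).

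In an intron of Bicd1, a dynein adaptor gene, chr6:149471111-149472212 held 1.49, 4.73 and 3.57 CPM of H3K9me3 in B6 and 25.54 and 25.5 in B6-13D2. D2-13B6 held 5.2, 6.34 and 4.58 and D2 20.34 and 18.33 CPM. The log2 fold changes were 2.94 ± 0.33 (edgeR adjusted p = 2.21e-13) and 1.79 ± 0.32 (adjusted p = 3.24e-05). H3K27ac here was unequal between the lines with the B6 segment, at 11.68 to 13.79 CPM in B6 and 1.76 to 3.92 in D2-13B6, and 0.639 to 0.801 CPM in the others.

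At chr10:24131386-24132976, 16.3 kb from the start of the endosomal syntaxin gene Stx7, H3K9me3 was 4.47, 3.15 and 1.53 CPM in B6 and 14.66 and 18.41 in B6-13D2. It was 2.60, 4.39 and 2.29 in D2-13B6 and 10.8 and 13.62 in D2, and both contrasts were called (2.40 ± 0.36 and 1.92 ± 0.40, edgeR adjusted p = 1.28e-07 and 0.00061). The remaining 2 held sequence A. At chr17:40464106-40464741, whose nearest gene is the secreted peptide gene Esp8, the log2 fold changes were 2.46 ± 0.41 and 1.70 ± 0.39 (edgeR adjusted p = 3.03e-06 and 0.00249). At chr15:51111525-51112184, 221.1 kb from the start of the GATA-type repressor gene Trps1, they were 1.73 ± 0.34 and 3.07 ± 0.51 (edgeR adjusted p = 0.000172 and 4.50e-06). D2-13B6 there held 0, 2.92 and 0.458 CPM, and B6 5.96, 2.10 and 6.12, with overlap.

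**Figure D2:**
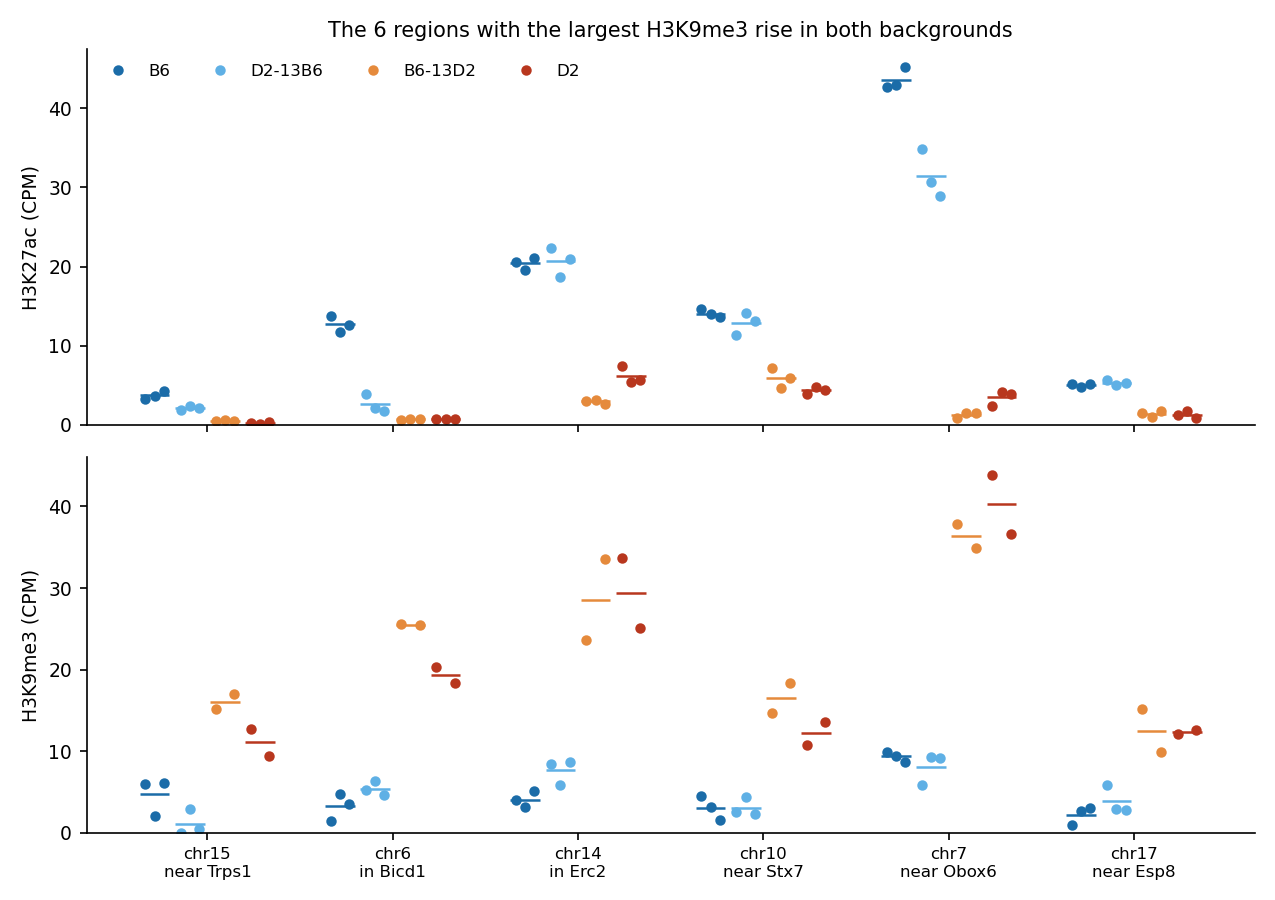
H3K27ac (upper) and H3K9me3 (lower) in CPM in every library of the 4 lines at the 6 regions with the largest mean H3K9me3 rise; points are libraries and short lines are means. At each region the B6-13D2 and D2 libraries are low in H3K27ac and high in H3K9me3, and near Obox6 they reach 34.94 to 43.85 CPM of H3K9me3.

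H3K9me3 calls were also counted by repeated sequence. Of the 159 regions with sequence A, 49 were called higher on the B6 background and 92 on the D2 background, 33 in both, and 0 lower in either, all by edgeR. Their median log2 fold changes were 0.65 and 1.38. Of the 75 with sequence B, 57 could be tested and 0 were called higher in either contrast. Their medians were -0.41 and -0.22, and the 3 regions called lower on the B6 background all held sequence B. Of the 31 with sequence C, 5 and 6 were called higher and 2 in both. Of the 257 with none of the 3, 152 were tested, 23 and 20 were called higher and 16 in both. Outside the 522, regions with none of the 3 were called higher in 0.497% and 0.421% of those tested, and 0.0451% of such regions in both. These are counts with no test between the sequences, and copies of a sequence are not independent.

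The 3 regions called lower were intergenic. At chr15:57007031-57008529, H3K9me3 was 22.86, 20.48 and 19.9 CPM in B6 and 10.88 and 8.97 in B6-13D2, a log2 fold change of -1.09 ± 0.28 (edgeR adjusted p = 0.0116). D2-13B6 held 12.35, 13.64 and 7.32 CPM and D2 12.07 and 7.33, with overlap, and -0.24 ± 0.33 between them (edgeR adjusted p = 0.876). At chr11:14031830-14033150 the change was -1.36 ± 0.36 and at chr3:77007252-77008744 it was -1.97 ± 0.52 (edgeR adjusted p = 0.0196 and 0.0184). The sequence B run at each follows, with capitals for bases equal to the sequence B source.
chr15:57007749-57007778, minus strand: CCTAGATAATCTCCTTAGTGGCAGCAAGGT
chr11:14032573-14032602, minus strand: CCTAGATAATCTCCTTAGTGGCAGaAAGGT
chr3:77007776-77007805, plus strand: CCTAGATAATCTCCTTAGTGGtAatAAGGT

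**Figure D3:**
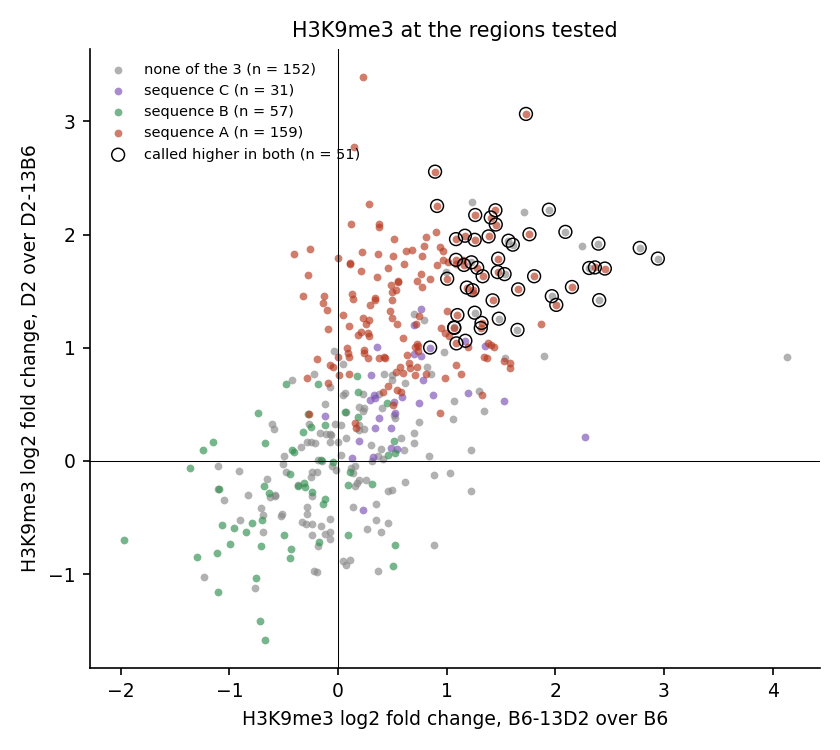
H3K9me3 log2 fold change from edgeR on the D2 background against that on the B6 background, 1 point for each of the 399 regions tested, coloured by the repeated sequence it holds; rings mark the 51 called higher in both. Regions with sequence A lie mostly above 0 on the D2 background, with a median of 1.38, and regions with sequence B lie around and below 0.

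Other copies of the same sequences, outside the 522, were measured in the same fits. Of 2567 further regions with sequence A, 24.6% of those tested were called higher in H3K9me3 on the D2 background and 5.84% on the B6 background, with medians of 0.98 and 0.13. Among the 159 the shares were 57.9% and 30.8%. In both contrasts 20.8% of the 159 were called higher, against 1.75% of the 2567. The summed H3K9me3 of the 2567 was 11040 to 13680 CPM in D2-13B6, 21210 to 25240 in D2, 24800 to 26160 in B6 and 28160 to 29960 in B6-13D2, so D2-13B6 stood apart from the other 3 lines. Summed H3K27ac over the same 2567 was 9278 to 11380 CPM in D2-13B6, 3425 to 3692 in B6, 2865 to 3204 in D2 and 1629 to 1888 in B6-13D2. Of 1208 further regions with sequence B, 0.417% and 0.209% of those tested were called higher and 1.25% and 1.25% lower. Of 3200 with sequence C, 3.19% and 1.95% of those tested were called higher and 0% lower. In both contrasts 0.5% of the 3200 were called higher, against 6.45% of the 31 with sequence C among the 522.

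The regions were also counted by the size of the H3K27ac difference and by the share of repeat bases, with no test between the groups. Of the 100 with the largest H3K27ac ratio, the value that chose the regions, 47 held sequence A, 14 sequence B and 1 sequence C. For H3K9me3, 81 of the 100 were tested and 23 were called higher in both contrasts, against 0.262% of all regions tested. Of the next 200, 71 held sequence A, 155 were tested and 14 were called in both. Of the 222 with the smallest ratio, 41 held sequence A, 163 were tested and 14 were called in both. Of the 282 regions that were at least 50% repeat, 254 were tested, and 64 and 106 were called higher on the B6 and the D2 background, with medians of 0.52 and 1.01. Outside the 522, regions as rich in repeats were called higher in 1.41% and 3.5% of those tested. Of the other 240, 145 were tested, and 13 and 12 were called, with medians of 0.03 and -0.01, and outside the 522 such regions were called in 0.54% and 0.45%.

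The contrasts differed from each other at 14 regions (edgeR interaction, B6-13D2 over B6 minus D2 over D2-13B6), 1 with a higher value and 13 with a lower value. The background was 0.0394% and 0.282%. All 13 held sequence A, and at all 13 the mean H3K9me3 of D2-13B6 was below those of the other 3 lines. They were 8.18% of the 159 regions with sequence A. Among tested regions with sequence A outside the 522, 6% had such a call (150 of 2498), so the share was near that of other copies. In an intron of Tmem132c, a transmembrane protein gene, chr5:127277436-127278513 held a mean of 1.76 CPM in D2-13B6 against 19.6 in B6, 23.2 in B6-13D2 and 19.6 in D2. Its log2 fold change was 3.39 on the D2 background and 0.23 on the B6 background, and the interaction was -3.16 ± 0.49 (edgeR adjusted p = 4.68e-06). The opposite case, chr11:46013968-46014851 in an intron of the testis transcription factor gene Sox30, held sequence C and lies on chromosome 11. There B6 was low, at a mean of 5.79 CPM against 28.4 in B6-13D2, 20.03 in D2-13B6 and 22.9 in D2, and the interaction was 2.06 ± 0.39 (edgeR adjusted p = 0.000747). The regions named for these contrasts were chosen after their values were seen. The count of 14 fell to 7 without either B6-13D2 library, to 9 without B6 replicate 1, to 9 or 8 without D2-13B6 replicate 2 or 3, and to 4 or 8 without D2 replicate 1 or 2, and was 6 with DESeq2.

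The separate lines gave H3K27ac measurements that the choice of regions did not use, with another antibody and another region list, although 1 of 3 lines in each strain was shared. An overlapping region was found for 377 of the 522 and tested for 375, which came to 331 distinct regions. In D2 against B6 lines, 306 were called lower and 4 higher by edgeR, against 25.1% lower and 24.3% higher among all regions tested. The 306 correspond to 267 distinct regions. The median log2 fold change was -0.98, against -0.01 for all regions. Without lines B6 5-1 and D2 5-5, 294 were called lower. The rule had required B6 5-1 to lie above D2 5-5 in H3K27ac. The shares among all regions are therefore no reference for regions chosen in this way.

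The largest falls were all at sequence A. At chr18:41464660-41465817, intergenic, the overlapping region held 4.07, 4.34 and 3.26 CPM in the B6 lines and 0.255, 0.219 and 0.229 in the D2 lines, a log2 fold change of -4.002 ± 0.317 (edgeR adjusted p = 6.48e-16). At chr1:22873793-22874754, 67.8 kb from the start of the synaptic gene Rims1, it held 2.18, 2.59 and 3.07 against 0.192, 0.110 and 0.229 CPM (-3.82 ± 0.40, edgeR adjusted p = 6.82e-12). At chr19:39248212-39249594, 19.8 kb from the start of the cytochrome P450 gene Cyp2c29, it held 8.48, 7.51 and 7.99 against 0.575, 0.657 and 0.459 CPM (-3.79 ± 0.21, edgeR adjusted p = 5.08e-22). At chr3:18852645-18853133 every D2 line had 3 counts or fewer, and B6 was at least 6.43-fold higher against that floor. None of the D2 libraries reached a B6 library at these regions.

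Of the 4 regions called higher, 3 were in an intron of Pecam1, an adhesion molecule gene, and shared 1 overlapping region. It held 21.65, 24.93 and 21.29 CPM in B6 and 25.22, 23.42 and 28.57 in D2 lines, with overlap (0.20 ± 0.09, edgeR adjusted p = 0.0462). At chr4:127000397-127001603, 19.7 kb from the start of the splicing factor gene Sfpq, B6 lines held 9.88, 10.88 and 8.51 and D2 lines 12.32, 14.12 and 13.42 CPM (0.46 ± 0.11, edgeR adjusted p = 0.00035). In the 4 lines, chr11:106730605-106732183 in Pecam1 had held 17.86 to 21.46 CPM in B6 and 4.93 to 7.56 in the lines with the D2 segment.

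H3K9me3 in the separate lines was called higher in D2 at 125 and lower at 36 of 336 regions tested, against 16.8% and 17.5% of all regions. The median log2 fold change was 0.39 against 0.00 for all regions, and scaling by library totals gave 0.55 against 0.15. Of the 51 regions called higher in both congenic contrasts, 46 were called higher here and 45 were called lower in H3K27ac. The B6 and D2 lines of those contrasts were also among the separate lines, so these counts are not independent of the choice of the 51. How many of the 51 could be tested in each fit was not counted, and neither was a share among comparable regions. At 100 regions H3K27ac was called lower and H3K9me3 higher, of 220 tested for both, against 10.4% of all regions tested for both. At 18 of the 220, both marks were called lower, against 5.81%.

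The largest H3K9me3 rise in the separate lines was beside Obox6, at chr7:15848989-15851080, from 8.07, 6.30 and 9.48 CPM in B6 to 87.85, 89.09 and 94.36 in D2 (3.41 ± 0.21, edgeR adjusted p = 3.39e-16). At chr7:136666235-136667909, 226.7 kb from the start of the DNA repair gene Mgmt, it rose from 4.03, 3.15 and 4.74 to 28.79, 30.09 and 26.74 CPM (2.74 ± 0.29, edgeR adjusted p = 3.98e-10). In the 4 lines this region was called on the B6 background (1.34 ± 0.30, adjusted p = 0.00207) and not on the D2 background (0.44 ± 0.31, adjusted p = 0.67). At chr11:77648931-77650597, 35.6 kb from the start of Nufip2, the separate lines differed by 3.22 ± 0.38 (edgeR adjusted p = 6.75e-09) and neither congenic contrast was called. At chr14:30331471-30332446, in an intron of the calcium channel gene Cacna1d, they differed by 2.99 ± 0.39 (edgeR adjusted p = 4.60e-08).

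By sequence, 63 of 63 tested regions with sequence A and 29 of 29 with sequence C were called lower in H3K27ac in the D2 lines, with medians of -2.81 and -1.60. Only 63 of the 159 regions with sequence A, and 29 of the 31 with sequence C, could be tested. A region near 0 in the D2 lines passed the count filter only through the B6 lines, so such regions could hardly be called higher. With sequence B, 51 of 59 were called lower, with a median of -0.86. With none of the 3, 163 of 224 were called lower and 4 higher, with a median of -0.71. H3K9me3 was called higher at 66 of 155 and lower at 6 with sequence A, and higher at 17 of 30 and lower at 0 with sequence C. With sequence B, 0 of 53 were called higher and 20 lower. At regions with none of the 3, 42 of 98 were called higher and 10 (10.2%) lower, against 16.1% and 18.4% of such regions outside the 522. Outside the 522, copies of the same sequences were called lower in H3K27ac in 49.2% of those tested for A, 39.1% for B and 68.1% for C, and higher in 27.3%, 34% and 1.2%. Regions outside with none of the 3 were called lower in 26.2% and higher in 28%. Copies outside were called higher in H3K9me3 in 18.8% for A, 6.98% for B and 27.9% for C. They were called lower in 7.15%, 34.3% and 7.79%.

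**Figure D4:**
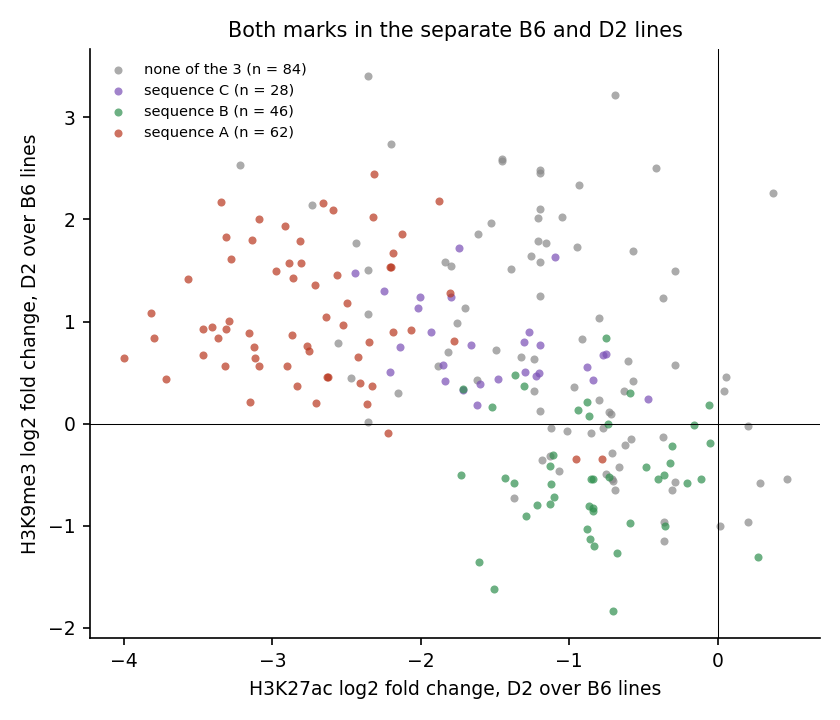
H3K9me3 against H3K27ac log2 fold change from edgeR, D2 over B6 separate lines, for the 220 regions tested for both marks, coloured by the repeated sequence. Most points lie left of 0, regions with sequence A mostly above 0 in H3K9me3, and regions with sequence B mostly below it.

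The cluster with the most regions was chr7:15838855-15865675, with 8 regions that run from the start of Obox6 toward the photoreceptor homeobox gene Crx. H3K27ac was high along the whole of it in the lines with the B6 segment. The region over the Obox6 start (chr7:15838855-15840350) held 19.54 to 21.7 CPM in B6, 22.0 to 25.24 in D2-13B6, 0.606 to 1.46 in B6-13D2 and 4.10 to 5.84 in D2. H3K9me3 could be tested at 5 of the 8 regions, and differences between the regions were not tested. Beside chr7:15848989-15851080, chr7:15854363-15855281 was called higher in both contrasts (1.26 ± 0.32 and 1.31 ± 0.34, edgeR adjusted p = 0.00964 and 0.013). The region at chr7:15848329-15848926 was called on the D2 background (2.29 ± 0.58, edgeR adjusted p = 0.0105) and not on the B6 background (1.24 ± 0.51, adjusted p = 0.356). Over the Obox6 start, H3K9me3 was 2.63 to 3.06 CPM in B6, 3.31 and 4.26 in B6-13D2, 1.30 to 4.87 in D2-13B6 and 3.67 and 4.45 in D2, too few counts to test, as at chr7:15859693-15860430 and chr7:15862111-15862923. At chr7:15856291-15857583 the changes were 0.50 ± 0.34 and -0.26 ± 0.45 (edgeR adjusted p = 0.761 and 0.913). At chr7:15864021-15865675 they were -0.15 ± 0.46 and -0.00140 ± 0.51 (edgeR adjusted p = 0.975 and 0.9998). In the separate lines, the H3K27ac region spanning 4 of the 8 (chr7:15846827-15858186) fell from 60.87, 55.23 and 48.22 CPM in B6 to 10.6, 11.11 and 10.1 in D2 (-2.36 ± 0.09, edgeR adjusted p = 6.01e-29). Fitted changes at the other regions were -1.22 ± 0.13 over the Obox6 start, -1.37 ± 0.18 at chr7:15859693-15860430 and -0.92 ± 0.19 at chr7:15862111-15862923, all 3 called by edgeR. At chr7:15864021-15865675 the change did not pass the test (-0.73 ± 0.36, edgeR adjusted p = 0.0865).

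**Figure D5:**
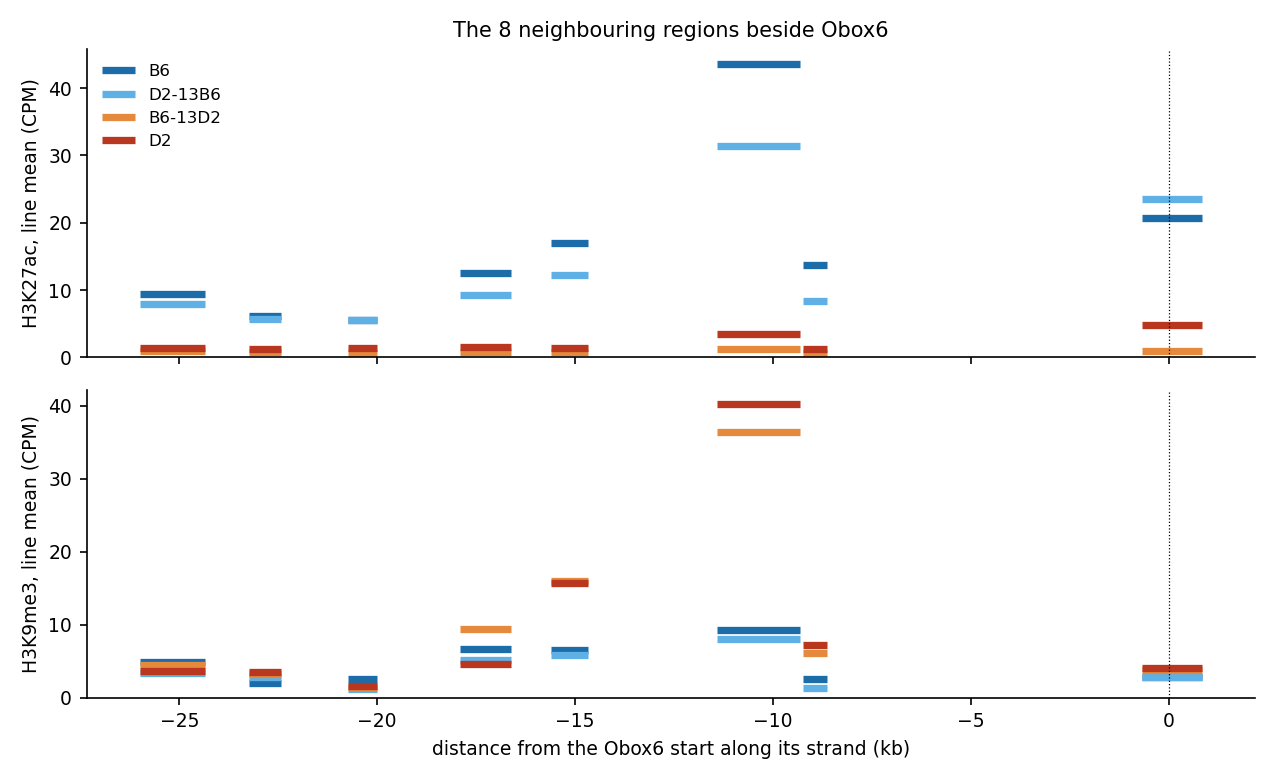
Mean H3K27ac (upper) and H3K9me3 (lower) in CPM of the 8 neighbouring regions, drawn at their distance in kb from the Obox6 start (dotted line), 1 bar for each region and line with the bar's length as the region's width. H3K27ac is high in B6 and D2-13B6 at all 8, and H3K9me3 differs most at the region whose near edge is 9.31 kb from the start.

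Of the 21 regions within 1 kb of a protein-coding start, 13 could be tested for H3K9me3 in the 4 lines, 0 were called on the B6 background and 1 was called higher on the D2 background, against 0.338% and 0.324% called higher of other regions at such starts. In the separate lines 13 of 18 were called lower in H3K27ac, against 25.1% of all regions tested, with a median of -0.37 against -0.01. Of other regions at such starts, 13.2% were called lower and 37.4% higher. At Dmtn, H3K27ac fell from 189.4, 182.2 and 186.3 CPM in B6 to 79.35, 82.09 and 79.84 in D2 lines (-1.19 ± 0.06, edgeR adjusted p = 5.98e-23). H3K9me3 there changed by 0.14 ± 0.34 and -0.41 ± 0.30 in the congenic contrasts (edgeR adjusted p = 0.965 and 0.673). At the de novo DNA methyltransferase gene Dnmt3a (chr12:3889210-3893026), H3K27ac was 56.16 to 58.95 CPM in B6, 70.25 to 76.45 in D2-13B6, 24.37 to 25.1 in B6-13D2 and 21.64 to 22.87 in D2. In the separate lines it fell from 49.04, 50.37 and 54.8 to 31.22, 29.72 and 30.57 CPM (-0.74 ± 0.07, edgeR adjusted p = 3.09e-12). At Bnip3, a mitophagy receptor gene (chr7:138897850-138899765), the fall was -0.63 ± 0.10. It was -0.36 ± 0.07 at the lipid phosphatase gene Inppl1 (chr7:101835516-101839478), -0.34 ± 0.06 at Etl4 (chr2:20548646-20550842) and -0.31 ± 0.09 at the galanin-like peptide gene Galp (chr7:6203149-6205304), all 4 called by edgeR. None of these 6 regions was called in H3K9me3 in the 4 lines. Etl4 had too few counts to test.

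By nearest protein-coding gene, 0 of the 522 regions fell to the 25 naive pluripotency genes, 0 to the 22 early lineage genes and 0 to the 20 germline genes, which hold 0.314%, 0.218% and 0.0533% of all regions. The heterochromatin list had 1 region, at Dnmt3a, which is 0.192% of the 522 against 0.13% of all regions. The imprinted list had 2, both at Sfmbt2, an imprinted polycomb-group gene, or 0.383% against 0.251%, so both shares were near those of all regions. The 2-cell stage list had 4 (0.766% against 0.0432%), all in the 1 cluster at Obox6. At Sfmbt2, chr2:10275405-10277007 held 13.11 to 15.41 CPM of H3K27ac in B6, 15.39 to 16.5 in D2-13B6, 5.98 to 6.75 in B6-13D2 and 5.38 to 7.98 in D2, at 93.5 kb from the start. Its separate-line region fell from 38.39, 38.27 and 39.9 to 20.87, 20.41 and 22.48 CPM (-0.85 ± 0.08, edgeR adjusted p = 2.08e-13), and H3K9me3 was not called in either congenic contrast.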

How the data were processed

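Per the submitters' processing notes, the genome build was mm10, and the tools named are Trimmomatic 0.39, HISAT2 2.2.1, MACS 1.4.2, bedtools 2.9.2 and edgeR, with no order. The deposited tables hold whole-number counts, not normalized, for each region, which the tables name as peaks. Columns were matched to samples by library name, and 2 columns that matched no sample were not used. CPM is the count over the column total times 1000000. Starts were read as counted from 0.

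Counts were tested with edgeR 4.0.16 (TMM, filterByExpr with a minimum count of 10, quasi-likelihood test, all 4 lines in 1 H3K9me3 fit, two-sided p adjusted by Benjamini-Hochberg over all regions tested). Standard errors came from the F statistics. DESeq2 1.42.0 was an alternative. On simulated counts over 86874 regions, 62.6% of regions with a log2 change of 2 and 4.95% with 1 were recovered for the B6 background contrast. Genes came from GENCODE M21 and sequence from GRCm38.p6. Sequences were compared with BLAST 2.17.0. H3K9me3 at the regions was read from the table with the same region names.

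The regions, gene lists, markers and tests were chosen with earlier results of these data known. Regions named were the largest H3K9me3 rises and falls, the highest H3K27ac, the largest ratios, those at gene starts, those with the largest changes in the separate lines, those near listed genes, those at the threshold and the largest cluster. Replicate numbers were not used to pair the samples in the main fits. Counts give counting precision only, since reads are not independent molecules.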

Additional observations from a re-analysis of the deposited data

Results flagged for a closer look

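The H3K9me3 contrast between the lines with the D2 and the B6 segment differed between the backgrounds at 14 regions (edgeR interaction, adjusted p under 0.05). Of these, 13 had the larger rise on the D2 background, and all 13 held sequence A. Outside the chosen set, 6% of tested regions with sequence A were called in the same direction, near the 8.18% within it. At these 13 the mean of D2-13B6 was below those of the other 3 lines, and the D2-13B6 libraries also held the lowest summed H3K9me3 over 2567 further copies of sequence A, at 11040 to 13680 CPM. Whether this belongs to the genotype or to line XE 2-4 cannot be told apart with 1 line.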

How the results depend on the processing

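The set of 522 regions became 1171 at a fold of 1.5, 189 at a fold of 3, 338 at a level of 4 CPM and 231 when every library had to pass against every library. TMM-scaled sizes gave 451, of which 442 were among the 522, and leaving out 1 library gave 512 to 539. Leaving out 1 library gave H3K9me3 counts of 38 to 93 on the B6 background, 52 to 121 on the D2 background, 22 to 61 in both and 4 to 16 for the difference. In the separate lines it gave 291 to 305 falls of H3K27ac, 102 to 132 rises of H3K9me3 and 88 to 106 with both. DESeq2 gave 25, 66, 12 and 6 for the first 4 of these results, and a mean of at least 20 counts gave 40, 69 and 29 for the first 3. Without a filter the difference was called at 7 regions. Requiring an absolute log2 fold change of 1 gave 76 rises of H3K9me3, 186 falls of H3K27ac and 60 with both in the separate lines. Library totals gave 77, 112 and 49 in the congenic contrasts. With the replicate number as a block the congenic counts were 69, 109, 44 and 16, and those of the separate lines 121, 306 and 100. Same-numbered H3K9me3 libraries of different lines correlated above 0.1 in 2 of 13 pairs. Both were D2-13B6 with D2, at 0.205 for replicate 1 and 0.123 for replicate 2, the same-numbered pairs of the D2 background contrast. Taking the regions on chromosome 11, chosen after seeing the data, out of the existing calls left 72, 114, 47 and 13. Nothing was fitted again for this, so it does not check the raised share of that chromosome in D2-13B6. At single named regions, 80 of the values under an alternative lost their call, 10 gained one and 2205 stayed on their side of the threshold, where values that were not called could change sign. No called value changed sign. Depth limits the tests, since 399 of the 522 regions could be tested for H3K9me3 in the 4 lines, 336 for H3K9me3 and 375 of the 377 with an overlapping region for H3K27ac in the separate lines.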
